A study of Mus musculus with 2 samples.

Results

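Endothelial cells form the inner wall of every blood vessel, and they were examined here in single-cell RNA-seq of the dorsal root ganglion (DRG), the cluster of sensory neuron cell bodies beside the spinal cord. The cells were chosen by their own counts. A barcode entered when it had over 300 detected genes, at least 1000 UMIs (unique molecular identifiers, each counting 1 captured RNA molecule), at most 22% mitochondrial UMIs, at least 1 UMI each of *Flt1* and *Pecam1* and together at least 10 of these per 10000 UMIs, under 30 UMIs of *Fabp7* per 10000, and at most 2 UMIs each of *Ncmap*, *Scn7a*, *Pdgfra*, *C1qa* and *Notch3*. *Flt1* encodes a receptor for vascular endothelial growth factor, and *Pecam1* a junction protein of endothelium. *Fabp7* marks satellite glia, and the other 5 genes mark Schwann cells, fibroblasts, macrophages and mural cells. This rule took 167 of 8366 barcodes that met the limits on genes, UMIs and mitochondrial share in replicate 1 (2.00%, exact 95% interval 1.71% to 2.32%) and 180 of 8516 in replicate 2 (2.11%, 1.82% to 2.44%), 347 of 16882 in all.

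Both samples came from L4 and L5 DRGs of uninjured wild-type C57BL/6 females aged 3 months, which had received no treatment, and they form 1 group. The ganglia were dissociated with papain and collagenase, and live cells were sorted before capture on the 10x platform, so vessels were seen only as the single cells that survived these steps. The study describes them as biological replicates. The number of animals behind each is not given in the labels, and p-values measure the spread between these 2 samples. The deposited files held 119101743 UMIs in replicate 1 and 128668771 in replicate 2.

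Endothelial cells of the brain and spinal cord are joined by claudin-based tight junctions and carry transporters that feed the tissue and pump out toxins, whereas many peripheral capillaries have windows closed by a diaphragm of PLVAP. Along a vascular tree, arteries, capillaries and veins differ in their Notch, adhesion and transport genes, and leukocytes leave the blood mostly through venules. The DRG lies outside the central nervous system, and its vessels are known to be permeable around the neuron cell bodies. Endothelial cells are also a classical source of endothelin-1, a peptide that acts on the receptors encoded by *Ednra* and *Ednrb*.

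The promoters of 4 genes that the comparisons below turn on are shown first: *Edn1* (endothelin-1), *Cldn5* (the main claudin of endothelial tight junctions), *Aqp1* (a water channel) and *Sele* (E-selectin, which catches leukocytes). Each runs from 250 bases before to 50 after the annotated start, 5′ to 3′ on the strand of the gene (plus in all 4), from the RefSeq table of promoters on GRCm38.p6, at chr13:42301226-42301525 for *Edn1*, chr16:18776597-18776896 for *Cldn5*, chr6:55336049-55336348 for *Aqp1* and chr1:164047984-164048283 for *Sele*. The table held 92 of the 125 genes followed by name. Capitals mark matches on either strand to 3 motifs. The letters AGGAAG are a core bound by ETS factors. GATA factors bind AGATAA. The AP-1 motif is TGA, any base, then TCA.
Edn1: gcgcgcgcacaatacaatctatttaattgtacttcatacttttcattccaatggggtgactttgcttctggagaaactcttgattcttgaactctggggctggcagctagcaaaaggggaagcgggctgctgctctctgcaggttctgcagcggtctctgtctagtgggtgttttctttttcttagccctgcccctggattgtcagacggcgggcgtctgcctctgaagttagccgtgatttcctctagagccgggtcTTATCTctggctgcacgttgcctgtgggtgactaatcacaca
Cldn5: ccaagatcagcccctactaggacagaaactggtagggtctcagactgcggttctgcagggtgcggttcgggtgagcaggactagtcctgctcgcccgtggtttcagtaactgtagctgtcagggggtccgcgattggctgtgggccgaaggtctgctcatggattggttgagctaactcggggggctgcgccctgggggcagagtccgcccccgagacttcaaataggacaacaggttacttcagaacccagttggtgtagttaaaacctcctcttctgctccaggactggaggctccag
Aqp1: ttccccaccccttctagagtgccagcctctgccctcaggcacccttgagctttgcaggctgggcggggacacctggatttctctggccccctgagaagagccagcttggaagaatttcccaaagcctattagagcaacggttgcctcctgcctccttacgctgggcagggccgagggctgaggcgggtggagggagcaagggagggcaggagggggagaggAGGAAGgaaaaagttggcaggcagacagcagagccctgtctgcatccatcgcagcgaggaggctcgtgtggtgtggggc
Sele: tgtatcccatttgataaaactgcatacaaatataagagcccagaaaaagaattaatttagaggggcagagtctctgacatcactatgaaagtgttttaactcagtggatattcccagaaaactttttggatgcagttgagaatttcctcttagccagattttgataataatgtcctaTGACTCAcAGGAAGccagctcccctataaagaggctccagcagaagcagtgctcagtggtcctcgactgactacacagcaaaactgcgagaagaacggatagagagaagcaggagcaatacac
The *Edn1* window held 1 GATA match, 8 bases after the start on the minus strand, the *Aqp1* window 1 ETS match, and the *Sele* window an AP-1 and an ETS match with 1 base between them, whereas the *Cldn5* window held none of the 3. Of 32851 promoters of this length, 35.4% held the ETS letters, 11.2% the GATA letters and 7.81% the AP-1 letters. These matches describe letters and were not tested as binding sites.

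The chosen cells were deep. They held a median of 15111 UMIs and 4561 genes in replicate 1 and of 16800 UMIs and 4784.5 genes in replicate 2, with a range of 1023 to 64529 and of 1352 to 66580 UMIs. *Flt1* and *Pecam1* together, which the rule used, had a median of 38.3 and 40.0 UMIs per 10000. The lowest chosen cell stood at 11.7 and 12.6, and the highest barcode just under the limit that met the other conditions at 9.91 and 9.04. In the interval from 10 to 15 lay 2 and 4 cells, and in that from 5 to 10 lay 2 and 1 barcodes outside. Of 183 and 206 barcodes that met the *Flt1* and *Pecam1* limits, *Fabp7* removed 7 and 8 and the 5 exclusion genes a further 9 and 18. *Notch3*, a mural marker, passed 2 UMIs in 6 and 9 of them. No endothelial barcode was shared between the samples, although 39 barcodes that met the limits on quality occurred in both. Between the summed endothelial counts of the 2 samples, chi-square was 2.99 per degree of freedom over 12804 genes, so the files do not hold 1 library deposited again. This says nothing of whether their spread is biological.

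The label was checked against the other markers given for it. *Cdh5*, the cadherin of endothelial junctions, was detected in 94.4% and 92.9% of endothelial cells of replicates 1 and 2, each cell thinned to 5000 UMIs, against 0.355% and 0.450% of mural cells and 0.357% and 0.426% of satellite glia. It also had a UMI in 20.3% and 23.7% of the fibroblasts, at 55.6 and 67.9 CPM (counts per 1000000 UMIs of the summed cells) where endothelial cells had 715 and 717. *Kdr*, the main receptor for vascular endothelial growth factor, stood at 392.4 and 392.3 CPM, and *Emcn* (endomucin) at 1583 and 1449 CPM. The cells thus carried all 3 markers that the rule had not used. Lymphatic endothelium, which the same rule could admit, was hardly present. Its regulator *Prox1* had 9 and 4 UMIs, *Lyve1* 0 and 14 and *Ccl21a* none in 3001772 and 3510411 UMIs, and the 7 lymphatic markers summed to 53.6 and 53.8 CPM, of which *Flt4*, also carried by blood capillaries, gave 45.6 and 43.0.

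Markers of other cells were also summed in these barcodes, in which the rule itself had capped *Fabp7* and the 5 exclusion genes. The 9 satellite glia markers were the most abundant at 1876 and 1715 CPM, of which *Apoe* gave 1526 and 1402. The 11 Schwann cell markers summed to 656.3 and 586.5 CPM, led by *Mal*, and the 6 perineurial markers to 557.3 and 715.3 CPM, of which *Slc2a1*, also a gene of barrier endothelium, gave 527 and 693. The 9 neuronal markers summed to 43.3 and 86.3 CPM. From *Mbp*, a myelin gene chosen after the data were seen, RNA of empty droplets was estimated at 4.02% and 2.59% of the endothelial UMIs. The 11 leukocyte markers summed to 15.7 and 47.6 CPM, led by *Lyz2*, with *Cd3e* at 0, and the 12 mural markers to 46.3 and 63.8 CPM. The 8 fibroblast markers reached 134.9 and 277.7 CPM, of which *Dcn* gave 56.3 and 186.6. A single cell of replicate 1 held 4735 UMIs of 5 erythroid genes among its 24112, whereas the next cell had 8 and no cell of replicate 2 had more than 1. The numbers of genes called in each comparison, and the lists' counts between arterial- and venous-anchored cells, were repeated without it.

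To see which genes set these cells apart, UMIs were summed per sample and cell group and compared with edgeR's quasi-likelihood test against 3 other groups of the same dissociations, gated on their own genes: mural cells, which wrap the vessels (301 and 238 cells), fibroblasts (249 and 321) and satellite glia, which wrap the neurons (3124 and 3135). Genes used by any gate were left out of the test, but the groups were still chosen on counts of the same cells, so the tests describe these gates. Endothelial cells were higher than all 3 groups in 2237 of 16649 genes, 13.4% of those tested, and lower than all 3 in 1718, or 10.3%. Against each group alone, 44.0% of genes passed in either direction for mural cells (21.4% higher, 22.6% lower), 49.9% for fibroblasts (23.4% and 26.5%) and 61.5% for satellite glia (29.2% and 32.3%). Counts of a gene list are best read against these shares. Some genes, such as *Cldn5* and *Mfsd2a*, belong to several lists, so the counts of different lists are not separate results.

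Of 18 pan-endothelial genes, 17 were higher than in all 3 groups. The median log2 fold change of the list was 8.02 against mural cells, 7.18 against fibroblasts and 9.73 against satellite glia, where the medians of all genes tested were -0.02, -0.02 and -0.14. The exception was *Mcam*, an adhesion molecule that mural cells also carry, at 26.3 and 25.4 CPM in endothelial cells, 210.3 and 222 in mural cells and 66.0 and 61.7 in satellite glia. *Cldn5* stood at 2473 and 2662 CPM in the 2 endothelial samples and at 1.55 and 2.26 CPM in mural cells, 0.921 and 1.87 in fibroblasts and 2.24 and 2.84 in satellite glia (log2 fold change 10.40 ± 0.19 against mural cells, adjusted p = 9.67e-12). Both endothelial samples lay far above the other groups, as the plot of endothelial genes by group shows.

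**Figure D1:**
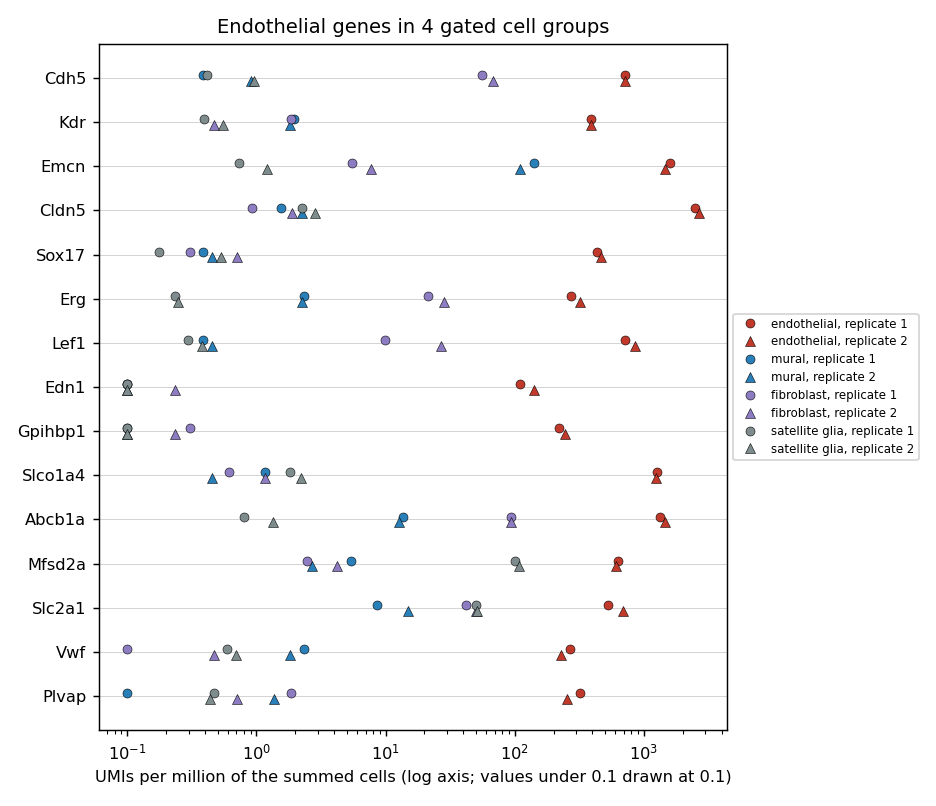
Levels of 15 genes of endothelium in CPM of the summed cells (log axis), with 1 point per sample for endothelial cells, mural cells, fibroblasts and satellite glia; values under 0.1 are drawn at 0.1. Both endothelial points lie to the right of all others for each gene shown, and the satellite glia come nearest for Mfsd2a.

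Transcription factors of the endothelial lineage followed, with 21 of 28 tested higher than in all 3 groups and 1 lower, *Nr2f2*. *Sox17* and *Sox18*, which act in arterial and early endothelial fate, stood at 431 and 463 CPM for the first and 173 and 184 CPM for the second, and each was at most 1.54 CPM in the other groups. *Erg*, an ETS factor that keeps endothelial identity, stood at 274 and 323 CPM. *Lef1*, a nuclear effector of Wnt signalling, reached 711 and 849 CPM against 0.389 and 0.452 in mural cells and 9.83 and 26.7 in fibroblasts (log2 fold change 5.34 ± 0.24, adjusted p = 3.83e-09). *Foxq1* and *Foxf2*, forkhead factors known from brain endothelium, were lower in level but nearly absent elsewhere: *Foxq1* had 43.0 and 89.4 CPM in endothelial cells and no UMI in mural cells, at least 36.9-fold higher in each sample when mural cells are set at 3 UMIs. *Nr2f2*, a factor of venous and mural cells, had 151 and 121 CPM here and 1176 and 1162 CPM in mural cells.

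Genes of a blood-tissue barrier were prominent. Of 21 junction and barrier genes tested, 16 were higher than in all 3 groups and 1, *Cldn1*, was lower, and of 15 barrier transporters 13 were higher and none lower. *Abcb1a*, the efflux pump P-glycoprotein, stood at 1337 and 1455 CPM against at most 94.0 CPM in the other groups. *Slco1a4*, an organic anion transporter, stood at 1271 and 1241 CPM and at 1.17 and 0.452 CPM in mural cells. *Mfsd2a*, which carries lysophospholipids and holds back transcytosis, stood at 626 and 611 CPM, but satellite glia carried it too, at 100 and 107 CPM (log2 fold change 2.40 ± 0.10, adjusted p = 5.93e-10). *Slc2a1*, the glucose transporter GLUT1, stood at 527 and 693 CPM in endothelial cells and 50.1 and 50.9 CPM in satellite glia. The same summed cells held *Plvap*, the diaphragm protein of permeable vessels, at 321 and 254 CPM, with at most 1.84 CPM in any other group.

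The endothelin and vasoactive list was divided, with 9 of 23 genes higher than in all 3 groups and 4 lower (*Ednra*, *Ece2*, *Gucy1a1* and *Ddah2*). *Ece2* had no UMI in endothelial cells. With these sums set at 3 UMIs, satellite glia had at least 0.492 and 1.17 times their level in replicates 1 and 2. At this floor replicate 1 does not show *Ece2* to be lower than in satellite glia. *Edn1* had 332 and 491 UMIs in the endothelial cells (111 and 139.9 CPM), none in mural cells, 0 and 1 in fibroblasts and 3 and 5 in the far larger sums of satellite glia. Setting each mural sum at 3 UMIs, endothelial cells had at least 94.9-fold more of it. Against satellite glia the log2 fold change was 10.35 ± 0.24 (adjusted p = 2.17e-11). Thinned to 5000 UMIs, 24.4% and 33.5% of endothelial cells had a UMI of *Edn1* (exact 95% intervals 17.9% to 31.8% and 26.5% to 41.2%), and 0.0325% and 0.0982% of satellite glia. No mural cell had one, which allows up to 1.06% and 1.35% of cells with a UMI at this depth, from the limit of 3 counts, and does not limit cells that express the gene. *Ece1*, which cuts the precursor to the active peptide, was higher than in all 3 groups at 289 and 277 CPM. Of the receptor genes, *Ednra* stood at 0.666 and 0.285 CPM in endothelial and 541 and 462 in mural cells. *Ednrb* had UMIs in endothelial cells too, at 61.0 and 55.3 CPM. Its levels were 126 and 96.3 CPM in mural cells and 1027 and 1054 in satellite glia. RNA of empty droplets was estimated above at 4.02% and 2.59% of the endothelial UMIs. Its part in the *Ednrb* level of endothelial cells was not tested.

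Among other vasoactive genes, *Nos3*, the endothelial nitric oxide synthase, stood at 62.3 and 46.1 CPM, and *Calcrl*, a receptor subunit for CGRP and adrenomedullin, at 565 and 582 CPM with 0.413 and 0.511 in satellite glia. *Ptgs1*, a cyclooxygenase, had 38.3 and 33.0 CPM and no UMI in mural cells (at least 24.4-fold). *Ramp2*, the partner of *Calcrl* for adrenomedullin, was at 450.4 and 415 CPM here and 417 and 446 CPM in fibroblasts, a difference of -0.01 ± 0.10 (log2, adjusted p = 0.932). Its level in fibroblasts overlapped that in endothelial cells.

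Of 28 receptors and ligands of vessel growth, 21 were higher than in all 3 groups, among them *Dll4*, *Notch4*, *Pdgfb*, *Acvrl1* and *Aplnr*, and *Pgf* was lower. Of 17 genes of leukocyte adhesion and recruitment 10 were higher and none lower, led in level by *Cxcl12* (1729 and 1670 CPM), a chemokine that holds and guides leukocytes. Of 22 genes of antigen presentation and the interferon response 17 were higher and none lower. *B2m*, the light chain of MHC class I, stood at 1378 and 1449 CPM against 314 and 343 in mural cells and 508 and 635 in satellite glia. *Irf7*, a regulator of interferon genes, stood at 169.9 and 166 CPM against 7.0 and 10.4 in mural cells (log2 fold change 4.28 ± 0.19, adjusted p = 3.02e-09). Of 16 basement membrane and matrix genes 1 was higher than in all 3 groups (*Sparcl1*) and 2 were lower (*Lamc1* and *Nid1*). Of 13 haemostasis genes tested 3 were higher (*Vwf*, *Entpd1* and *F8*), of 14 fatty acid genes 6 were higher and 1 lower, and of 16 genes of dissociation stress 4 were higher (*Zfp36*, *Ier2*, *Dusp1* and *Ier3*).

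Ranked by the smallest of the 3 fold changes, the leading 10 genes were *Gm32688*, *Adgrl4*, *Dipk2b*, *Lrg1*, *Ctla2a*, *Gm609*, *Selp*, *Gimap8*, *1810006J02Rik* and *Rbp7*. *Adgrl4*, an adhesion G protein-coupled receptor of endothelium, had 4395 and 6205 UMIs (1464 and 1768 CPM) and at most 0.904 CPM in any other group. *Gm32688* had 166 and 197 UMIs here and none in the other 3 groups, and was at least 938-fold higher than satellite glia at 3 UMIs per sum. *Rbp7*, a retinol-binding protein, had 155 and 117 CPM and no UMI in mural cells or fibroblasts.

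The endothelial cells were next divided along the vascular tree without clustering, by UMIs of genes fixed as anchors. The arterial anchors were *Sema3g*, *Gja5*, *Bmx* and *Hey1*, and the venous anchors *Ackr1*, *Selp* and *Nr2f2*. A cell with at least 2 arterial anchor UMIs that were at least 2 times its venous ones was called arterial-anchored, and the reverse venous-anchored. Arterial-anchored cells numbered 88 and 99 (52.7% and 55.0% of endothelial cells) and venous-anchored cells 37 and 41 (22.2% and 22.8%). Without *Nr2f2* as an anchor only 17 and 13 cells (10.2% and 7.22%) were venous-anchored, and 106 and 117 were arterial-anchored. With all anchors, a further 15 and 12 had both kinds, and 27 and 28 had too few anchor UMIs, here called low-anchor. The plot of anchor UMIs per cell shows most cells along one axis or the other.

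**Figure D2:**
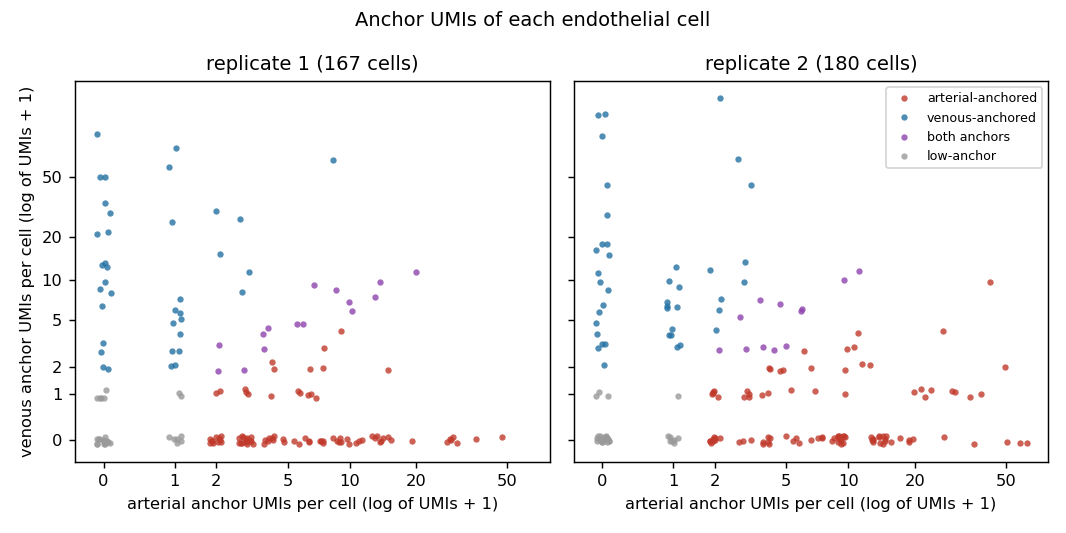
Each point is an endothelial cell, placed by its UMIs of arterial anchors (Sema3g, Gja5, Bmx, Hey1) and of venous anchors (Ackr1, Selp, Nr2f2), both on a log scale of UMIs + 1 with small jitter, in each of the 2 samples; colours give the 4 subsets. The 88 and 99 arterial-anchored cells lie along the horizontal axis and the 37 and 41 venous-anchored cells along the vertical axis.

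The anchors were not equal in weight. In the arterial-anchored cells *Bmx* had 371 and 646 UMIs, *Sema3g* 172 and 295 and *Hey1* 170 and 269, whereas *Gja5*, the connexin of large arteries, had none in any endothelial cell. In the venous-anchored cells *Selp* (P-selectin) had 396 and 637 UMIs, *Nr2f2* 335 and 288 and *Ackr1*, a chemokine receptor of venules, 11 and 26. The call also depended on depth: median UMIs were 16564.5 and 18859 in arterial-anchored, 11463 and 14964 in venous-anchored, 28781 and 28931.5 in both-anchor and 7779 and 7208 in low-anchor cells. At the limit, 13 and 14 arterial-anchored cells had exactly 2 arterial anchor UMIs, 4 and 1 venous-anchored cells exactly 2 venous ones, and 13 and 11 low-anchor cells had 1 of either. Thinned to 5000 UMIs before the division, 50 and 62 cells were arterial-anchored and 34 and 33 venous-anchored.

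Between arterial- and venous-anchored cells 760 of 10011 genes passed (7.59%), 325 higher in the arterial-anchored (3.25%) and 435 higher in the venous-anchored (4.35%). With 1 library of either subset left out, the first count fell to between 126 and 151 and the second to between 183 and 209. Each such fit leaves 1 subset with a single sample, so its spread comes from the other subsets. DESeq2 called 159 and 227. The subsets were chosen on counts of the same cells, so genes that vary with the anchors differ by construction and the tests describe this division. All folds below are arterial- against venous-anchored cells on the log2 scale, with the standard error of edgeR's test.

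*Cldn5* and *Plvap* lay on opposite sides. *Cldn5* stood at 3479 and 3513 CPM in arterial-anchored and 632 and 561 CPM in venous-anchored cells, and the samples did not overlap (2.52 ± 0.14, adjusted p = 2.74e-07). Thinned to 5000 UMIs, 100% and 97.9% of arterial-anchored and 62.2% and 58.5% of venous-anchored cells had a UMI of it. *Plvap* went the other way, with 106 and 74.5 against 868 and 752 CPM (-3.20 ± 0.22, adjusted p = 1.73e-06) and detection in 30.1% and 17.7% of arterial-anchored and 81.1% and 73.2% of venous-anchored cells. Cells without a single UMI of *Cldn5* numbered 13 and 10 of the venous-anchored and none of the arterial-anchored, and cells without *Plvap* 51 and 65 of the arterial-anchored and 2 and 4 of the venous-anchored. No endothelial cell lacked both. Their joint plot shows each cell.

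**Figure D3:**
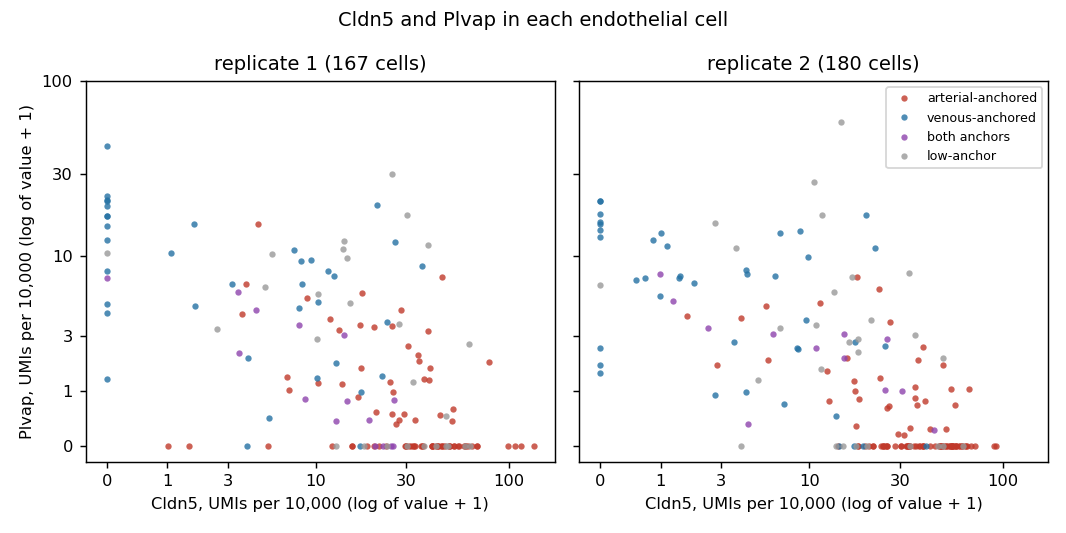
Each point is an endothelial cell, placed by its UMIs of Cldn5 and of Plvap per 10000, both on a log scale of the value + 1, in each of the 2 samples; colours give the subset. Arterial-anchored cells lie to the right (median Cldn5 34.0 and 36.2 per 10000) with 51 and 65 of them at 0 for Plvap, and venous-anchored cells to the left (median 4.07 and 3.64). The low-anchor cells have medians of 25.4 and 15.8.

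Of 18 junction and barrier genes tested 6 were higher in arterial-anchored cells (*Cldn5*, *Tjp1*, *Lsr*, *Ocln*, *Cgnl1* and *Mfsd2a*) and 2 higher in venous-anchored cells (*Plvap* and *Jam3*). DESeq2 gave 5 and 2, without *Ocln* (adjusted p = 0.162). With edgeR, *Ocln* also did not pass with *Flt1* and *Pecam1* at 20 per 10000 (adjusted p = 0.0699) or without *Nr2f2* as an anchor (0.367). *Tjp1* (ZO-1), which ties claudins to the cytoskeleton, had 1362 and 1645 against 583 and 616 CPM, and *Mfsd2a* 778 and 716 against 241 and 257 CPM (1.56 ± 0.15, adjusted p = 2.02e-05). *Cdh5* stood at 745 and 743 against 668 and 673 CPM (0.12 ± 0.13, adjusted p = 0.724), and its samples lay within 1.12-fold of each other. The median of the list was 0.21 against -0.01 for all genes tested.

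Of 14 barrier transporters tested, 11 were higher in arterial-anchored cells and 1, *Slco2b1*, in venous-anchored cells, with a median of 1.27. *Slc2a1* had 794 and 977 against 63.3 and 60.2 CPM (3.81 ± 0.22, adjusted p = 2.74e-07). *Slco1c1*, a thyroid hormone transporter, had 137 and 117 against 1.58 and 0 CPM, and *Slc7a1*, the arginine carrier, 639.5 and 641 against 173 and 198 CPM (1.76 ± 0.20). *Abcb1a* was present in both at 1630 and 1652 against 678 and 862 CPM (1.06 ± 0.16, adjusted p = 0.000724), and *Abcg2*, a second efflux pump, at 1707 and 1600 against 1319 and 1266 CPM did not pass (adjusted p = 0.255). Without 1 library of either subset the number higher in arterial-anchored cells was between 5 and 7, and with a replicate block or with DESeq2 it was 9. *Slco2b1* lost the call with DESeq2 (adjusted p = 0.142) and without arterial-anchored replicate 1 (0.156), arterial-anchored replicate 2 (0.186) or venous-anchored replicate 2 (0.127), which left no transporter higher in venous-anchored cells.

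Of 19 genes of veins and venules tested that were not anchors, 16 were higher in venous-anchored cells. The list was chosen with earlier results of these data known, so this count describes the division and is no independent check of its name. The median log2 fold change of the 19 was -2.99, and the single gene in the other direction was *Lcn2* (50.2 and 49.7 against 9.50 and 23.5 CPM), which DESeq2 did not call. Leaving out 1 library of either subset, 14 to 15 genes of the list were higher in venous-anchored cells. *Vwf*, the clotting factor carrier stored with P-selectin, had 97.9 and 96.6 CPM in arterial-anchored and 820.3 and 679 CPM in venous-anchored cells (-2.97 ± 0.17, adjusted p = 2.94e-07). *Lrg1* (9.79 and 6.65 against 459 and 276 CPM) and *Il1r1*, the receptor for interleukin-1 (6.73 and 2.66 against 82.3 and 64.6 CPM), moved the same way, and in none of these genes did the samples overlap.

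Adhesion molecules for leukocytes were compared next. *Icam1* had 33.7 and 23.9 CPM in arterial-anchored and 184 and 259 CPM in venous-anchored cells (-2.99 ± 0.23, adjusted p = 4.64e-06), and *Vcam1* 23.9 and 13.7 against 165 and 260.0 CPM (-3.56 ± 0.38). *Sele* had 0.612 and 6.65 against 103 and 206 CPM (-5.23 ± 0.70, adjusted p = 0.000365, and 0.237 with DESeq2). Of 12 genes of this list that were tested, 4 were higher in venous-anchored cells and 2, the chemokines *Cxcl12* and *Cx3cl1*, in arterial-anchored cells. Of the 4, *Icam1*, *Vcam1* and *Sele* kept the call without any 1 library of either subset, and *Icam1* and *Vcam1* with DESeq2. *Csf1* did not pass with DESeq2 (adjusted p = 0.494), with a replicate block (0.0614) or in any of the 4 fits without 1 library (0.13 to 0.362). *Cx3cl1* did not pass with DESeq2 (adjusted p = 0.341) or without any 1 library of either subset (0.057 to 0.278), which left 1 gene higher. *Cxcl12* stood at 2349 and 2148 against 336 and 295 CPM (2.81 ± 0.15, adjusted p = 1.37e-07).

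**Figure D4:**
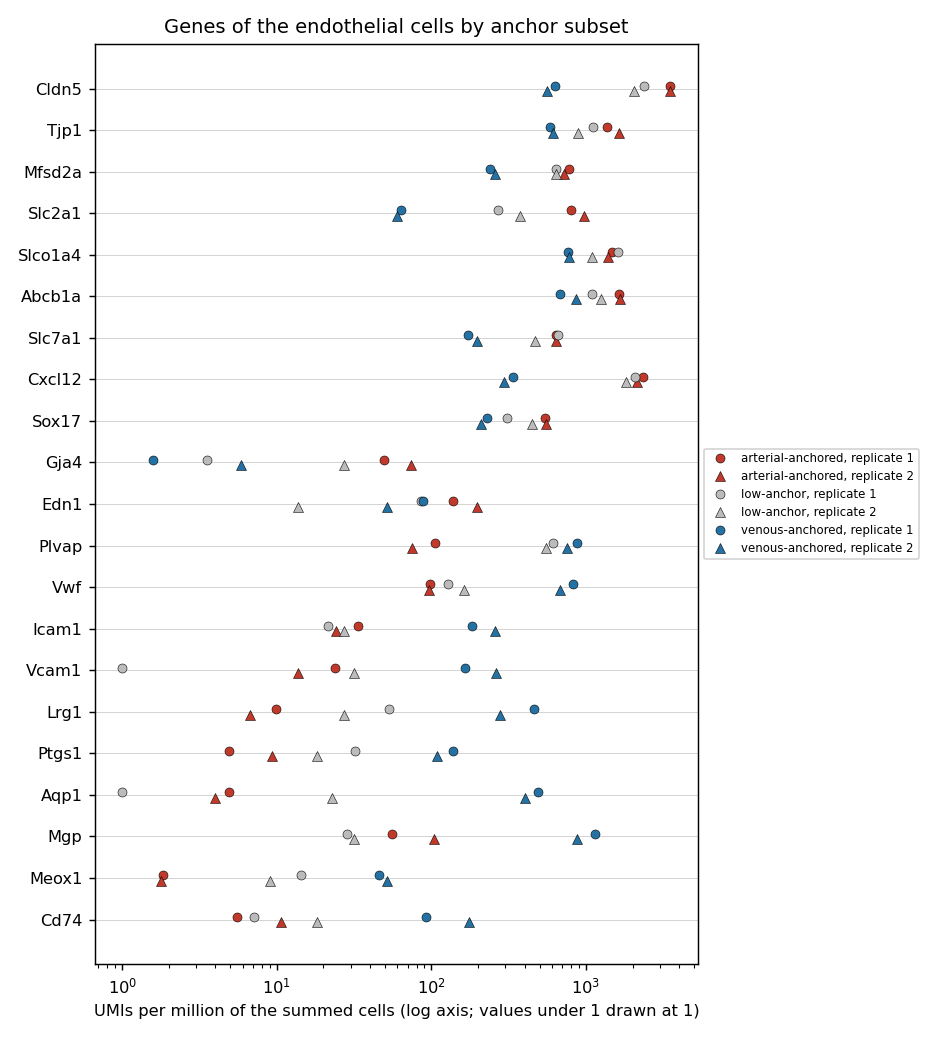
Levels of 21 genes in CPM of the summed cells (log axis), with 1 point per sample for arterial-anchored, low-anchor and venous-anchored endothelial cells; values under 1 are drawn at 1. From Cldn5 to Edn1 both arterial-anchored points lie to the right of both venous-anchored ones and from Plvap to Cd74 to the left, and the low-anchor points lie between for Cldn5, Slc2a1, Plvap and Vwf.

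Genes of MHC class II lay on the venous side. *H2-Ab1*, *H2-Aa*, *H2-Eb1* and *Cd74*, which make and load MHC class II for helper T cells, were higher in venous-anchored cells, with *Cd74* at 5.51 and 10.6 against 91.8 and 175 CPM (-4.0 ± 0.48, adjusted p = 0.000151). The class I genes *B2m* (1382 and 1399 against 1351 and 1653 CPM) and *H2-D1* (1382 and 1568 against 1308 and 1661 CPM) did not pass, with adjusted p of 0.693 and 0.954. The interferon genes *Irf7* and *Ifit1* were higher in arterial-anchored cells, *Ifit1* at 216 and 221 against 36.4 and 76.4 CPM (1.91 ± 0.25, adjusted p = 0.000315). Of 22 genes of the list 3 were higher and 4 lower in arterial-anchored cells, and 1 to 3 and 3 to 4 without 1 library of either subset. Class II genes also belong to leukocytes, whose 11 markers summed to 17.7 and 63.4 CPM in arterial-anchored and 14.3 and 17.6 CPM in venous-anchored cells, and *Cd3e* was at 0 in both samples.

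Of 10 haemostasis genes tested, 6 were higher in venous-anchored cells, and 3 to 4 without 1 library of either subset and 3 with DESeq2. Among the 6 were *Vwf*, *F8* (clotting factor VIII, 3.67 and 4.88 against 61.8 and 106 CPM) and *Procr*, the receptor for protein C (45.3 and 45.7 against 72.8 and 97.0 CPM), which did not pass with DESeq2 (adjusted p = 0.323) or in 3 of the 4 fits without 1 library. *Plat*, the tissue plasminogen activator that dissolves clots, was the 1 gene in the other direction, at 192 and 194 against 11.1 and 26.4 CPM (3.30 ± 0.27, adjusted p = 7.10e-06).

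Arterial genes that were not anchors gave a mixed result. Of 20 tested, 7 were higher in arterial-anchored cells (*Sox17*, *Dll4*, *Gja4*, *Alpl*, *Slc6a6*, *Cxcl12* and *Unc5b*) and 3 higher in venous-anchored cells (*Mgp*, *Eln* and *Ltbp4*), with a median of 0.37. Leaving out 1 library of either subset gave 3 to 5 higher and 1 to 2 lower, and DESeq2 gave 5 and 1. *Dll4* (adjusted p = 0.252), *Alpl* and *Ltbp4* (0.0706) were among those that DESeq2 did not call. *Gja4*, connexin 37, had 49.0 and 73.2 against 1.58 and 5.88 CPM (3.94 ± 0.70, adjusted p = 0.00289), and *Dll4*, a Notch ligand of arterial and tip cells, 127 and 139 against 80.8 and 61.7 CPM. *Mgp*, a matrix protein of artery walls, had 55.7 and 104 against 1150 and 868 CPM (-3.66 ± 0.26, adjusted p = 1.78e-06), and elastin (*Eln*) 71.0 and 64.3 against 207 and 94.0 CPM (adjusted p = 0.0421, and 0.0574 with a replicate block). *Mgp*, *Eln* and *Ltbp4* were each lower in endothelial cells than in fibroblasts, and *Mgp* was also lower than in mural cells. Of the genes on the arterial-anchored side, *Alpl* was lower than in fibroblasts too, though not with DESeq2 (adjusted p = 0.0554). Markers of large arteries were sparse in all endothelial cells: *Gkn3* had 4 and 9 UMIs, *Cytl1* 0 and 1 and *Gja5* none. The arterial-anchored cells are therefore named here by their anchors and not as arteries.

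Of 17 capillary genes tested, 5 were higher in arterial-anchored cells (*Mfsd2a*, *Slc7a5*, *Spock2*, *Esm1* and *Tfrc*) and 3 in venous-anchored cells (*Aplnr*, *Fabp4* and *Gpihbp1*). Without *Nr2f2* as an anchor 9 were higher and 1 lower, and leaving out 1 library of either subset gave 3 to 4 higher and 1 to 2 lower. *Tfrc* did not pass with a replicate block (adjusted p = 0.0532) or with DESeq2 (0.501). *Spock2* had 3111 and 2691 against 1088 and 1012 CPM (1.44 ± 0.17, adjusted p = 0.000143), and *Aplnr*, the apelin receptor, 31.2 and 36.8 against 114 and 144 CPM (-1.94 ± 0.26, adjusted p = 0.000419). *Gpihbp1*, which carries lipoprotein lipase to the capillary lumen, had 138 and 131 against 217 and 399.6 CPM (-1.23 ± 0.29, adjusted p = 0.0205), but it turned to 1.26 (adjusted p = 0.0136) when *Nr2f2* was not an anchor. *Kdr* (382 and 408 against 347 and 291 CPM) and *Rgcc* (231 and 185 against 282 and 253 CPM) did not pass, with adjusted p of 0.509 and 0.274. *Cd36*, the fatty acid carrier of many capillaries, had 1 UMI in replicate 1 and 40 in replicate 2, and *Lpl* 0 and 4.

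Factors and signals of the vessel wall differed in part. Of 25 transcription factors tested, 7 were higher in arterial-anchored cells, namely *Sox17*, *Lef1*, *Foxq1*, *Foxf2*, *Klf2*, *Klf4* and *Epas1*, and 1, *Meox1*, in venous-anchored cells. Leaving out 1 library of either subset gave 4 to 6 higher and 0 to 1 lower, and without *Nr2f2* as an anchor 5 were higher and 4 lower. Without either venous-anchored replicate *Meox1* did not pass the filter on low counts and was not tested, which left none lower. *Klf4* did not pass in any of these 5 fits or with DESeq2 (adjusted p = 0.0864). *Foxq1* had 67.3 and 129 against 3.17 and 7.34 CPM (4.15 ± 0.52, adjusted p = 0.000224) and *Lef1* 820.0 and 994 against 469 and 466 CPM (0.93 ± 0.16). *Meox1* had 1.84 and 1.77 against 45.9 and 51.4 CPM (-4.67 ± 0.41, adjusted p = 1.28e-05). It entered the test only through the venous-anchored samples, where it is high, so its p-value describes a gene picked from that side. *Erg* stood at 282 and 318 against 283 and 304 CPM (0.00 ± 0.21, adjusted p = 0.998). Of 27 receptors and ligands of vessel growth, 8 were higher in arterial-anchored cells, with *Notch4*, *Jag2*, *Dll4*, *Pdgfb* and *Acvrl1* among them, and *Nrp2* and *Aplnr* in venous-anchored cells. Without 1 library of either subset the 8 fell to between 4 and 5.

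*Edn1* was uneven along this division. Its CPM was 138 and 198 in arterial-anchored, 88.7 and 51.4 in venous-anchored, 59.4 and 19.8 in both-anchor and 85.2 and 13.6 in low-anchor cells, so that the arterial-anchored samples lay above all others. The difference from venous-anchored cells did not pass (1.25 ± 0.37, adjusted p = 0.0583), and it fell to -0.13 (adjusted p = 0.882) when *Nr2f2* was not an anchor and passed when *Hey1* was not (1.41, adjusted p = 0.03), when subsets were chosen on thinned cells (1.31, adjusted p = 0.00185) or with no filter on low counts (1.28, adjusted p = 1.78e-06). Thinned to 5000 UMIs, 31.3% and 50% of arterial-anchored and 18.9% and 19.5% of venous-anchored cells had a UMI of *Edn1*. Within arterial-anchored cells it varied widely, with a median of 0 and 0.976 UMIs per 10000 and a highest cell of 29.7 and 15.0.

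Of 17 endothelin and vasoactive genes tested, 5 were higher in venous-anchored cells (*Ptgs1*, *Ptgis*, *Calcrl*, *Npr1* and *Ednrb*) and 1, *S1pr1*, in arterial-anchored cells. DESeq2 gave 2 and 0, and leaving out 1 library of either subset gave 2 to 3 and 0. *Ptgs1* had 4.90 and 9.31 against 138 and 109 CPM (-4.06 ± 0.32, adjusted p = 5.71e-06), and *Ptgis*, the prostacyclin synthase that acts after it, 46.5 and 25.3 against 76.0 and 88.1 CPM (-1.26 ± 0.27, adjusted p = 0.0110). *Calcrl* had 444 and 496 against 765 and 762 CPM (-0.73 ± 0.18, adjusted p = 0.0222). It did not pass without any 1 library of either subset, where its log2 fold change lay between -0.599 and -0.779. *Ednrb* had 18.4 and 48.3 against 122 and 101 CPM (-1.71 ± 0.47, adjusted p = 0.0421, and 0.0621 with a replicate block). It did not pass with DESeq2 (adjusted p = 0.0912) or, with edgeR, without *Nr2f2* as an anchor (0.0646). Nor did it pass without arterial-anchored replicate 1 or either venous-anchored replicate.

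By fitted fold, the leading genes of arterial-anchored cells were *Mannr*, *Alpl*, *Slco1c1*, *Odf3b*, *Gm35167*, *Nebl*, *St8sia6*, *Foxq1*, *Ddc* and *Hs3st3b1*. *Mannr*, *Alpl*, *Odf3b* and *Gm35167* had no UMI in venous-anchored cells, so their rank depends on the prior count of the fit. With these sums set at 3 UMIs they were at least 5.15-, 3.74-, 2.41- and 2.62-fold higher. DESeq2 did not call *Mannr*, *Alpl*, *Gm35167*, *Nebl* (adjusted p = 0.411) or *Ddc* (0.189). *St8sia6*, a sialyltransferase, had 144 and 189 against 1.58 and 10.3 CPM (4.72 ± 0.53, adjusted p = 8.54e-05), and *Nebl* 284 and 605 against 1.58 and 17.6 CPM. Among the leading genes of venous-anchored cells were *Tll1*, *Enpp6*, *Kcnt2*, *Aqp1*, *Pdlim1*, *Aebp1*, *Pcdh7*, *Pde3a* and *Fabp4*. *Tll1*, a metalloprotease, had 0 and 0.443 against 241 and 198 CPM, *Aqp1* 4.90 and 3.99 against 493 and 405 CPM (-6.66 ± 0.33, adjusted p = 1.07e-07) and *Pcdh7*, a protocadherin, 4.90 and 11.5 against 732 and 723 CPM. *Enpp6* had no UMI in arterial-anchored cells and was at least 41.4-fold higher, with these set at 3 UMIs per sum, but it did not pass with DESeq2 (adjusted p = 0.472), nor did *Fabp4* (0.217).

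Some of these genes are also abundant outside endothelium. *Pde3a* stood at 1648 and 1700 CPM and *Kcnt2* at 389 and 324 CPM in mural cells, and *Aebp1* at 537 and 485 CPM in fibroblasts. The 12 mural markers summed to 39.2 and 38.1 CPM in arterial-anchored and 82.3 and 179.2 CPM in venous-anchored cells. *Notch3* had 1 and 4 UMIs in the latter, but the rule caps it at 2 UMIs per cell, so its count does not measure mural RNA. Mural cells themselves summed to 21279 and 23250 CPM. The 8 fibroblast markers summed to 42.2 and 233.2 CPM in arterial-anchored and 414.9 and 580.2 CPM in venous-anchored cells, and 2 of 5 tested, *Col3a1* and *Col1a2*, were higher in the latter. The 9 satellite glia markers summed to 1038 and 1534 against 2439 and 2380 CPM, and RNA of empty droplets was estimated at 1.71% and 2.51% against 5.70% and 2.69%. The part of this RNA in the differences was not tested. With the empty-droplet RNA subtracted, 309 genes were higher and 474 lower in arterial-anchored cells.

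The low-anchor cells were set against both. Between arterial-anchored and low-anchor cells 18 of 10011 genes (0.18%) passed, 5 higher (0.0499%) and 13 lower (0.13%) in the arterial-anchored, and 9 and 16 with a replicate block. Without low-anchor replicate 1 the counts were 0 and 2, without low-anchor replicate 2 30 and 12, without arterial-anchored replicate 1 2 and 4, and without arterial-anchored replicate 2 0 and 2. The 5 were *Dkk2*, *Slc6a6*, *Plat*, *Slc2a1* and *Gm609*, of which *Dkk2* was named after its values were seen. *Plvap*, at 607 and 548 CPM in low-anchor cells, was among the 13 (-2.72 ± 0.23, adjusted p = 0.000327), as was *Piezo2*, a mechanosensitive channel named after its values were seen (77.1 and 59.9 CPM in arterial-anchored and 288 and 276 CPM in low-anchor cells, -2.08 ± 0.20, adjusted p = 0.000648).

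Against venous-anchored cells 221 genes passed (2.21%), 140 higher (1.4%) and 81 lower (0.809%) in the venous-anchored. Of the 19 venous genes 12 were higher in venous-anchored cells, and of the 14 barrier transporters 7 were lower. Without low-anchor replicate 1 the counts of genes higher and lower fell to 29 and 22, without low-anchor replicate 2 to 99 and 73, without venous-anchored replicate 1 to 58 and 41, and without venous-anchored replicate 2 to 56 and 28. DESeq2 gave 82 and 67. Among the genes in the lists' counts, *Il1r1* lost the call in each of the 4 fits without 1 library (adjusted p from 0.0612 to 0.276) and *Vcam1* without low-anchor replicate 1 (0.14), and *Slco1a4*, *Slc3a2* and *Slc16a1* lost it in 3 of the 4. *Cldn5* had 2368 and 2056 CPM in low-anchor cells (-1.89 ± 0.14 for venous- minus low-anchor, adjusted p = 1.67e-05), between the other subsets. *Car4*, the carbonic anhydrase of capillaries, had 895 and 371 CPM in low-anchor, 244 and 215 in arterial-anchored and 165 and 163 in venous-anchored cells (-1.96 ± 0.36 for venous- minus low-anchor, adjusted p = 0.0126). Without low-anchor replicate 1 the last fold was -1.20 (adjusted p = 0.275), and it did not pass without either venous-anchored replicate (0.107 and 0.115). The low-anchor cells had the fewest UMIs, and a gene that misses the threshold there is not shown to be alike.

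Genes listed for dissociation stress were present in all subsets, at uneven levels. The 16 stress genes, led by *Fos*, summed to 16732 and 19813 CPM in endothelial cells, 20071 and 21585 in arterial-anchored, 15185 and 15706 in venous-anchored and 6722 and 20469 in low-anchor cells. The low-anchor cells of replicate 1 were the lowest of these sums. None of the 16 passed between arterial- and venous-anchored cells with edgeR or DESeq2, although 2 had an unadjusted p under 0.05 with edgeR. This depended on how the subsets were chosen: 9 of the 16 were higher in arterial-anchored cells when subsets were chosen on thinned cells, 3 were higher and 1 lower without *Nr2f2* as an anchor, and 1 was higher with a replicate block, with at least 3 anchor UMIs or with 0 UMIs of each exclusion gene. What induced these 16 genes, and its part in the comparisons, was not tested. Of 12 proliferation genes *Pcna* and *Hmgb2* were higher than in all 3 other groups. *Mki67*, a marker of cycling cells, had 34 and 13 UMIs in all endothelial cells, and 3 and 7 of these lay in arterial-anchored and 2 and 1 in venous-anchored cells. The remaining *Mki67* UMIs lay in both-anchor and low-anchor cells. Together the 12 genes summed to 649 and 294 CPM in both-anchor cells. Their sums were 190 and 175 CPM in arterial-anchored, 200 and 214 in venous-anchored and 142 and 222 in low-anchor cells.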

How the data were processed

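Both samples were measured by 10x 3′ single-cell RNA-seq. The authors deposited raw UMI counts per gene for all barcodes, made with Cell Ranger 7.1.0 on mm10 per the file headers and the submitters' processing notes. Of 32285 feature IDs, 32235 were found in the GENCODE M21 annotation of GRCm38.

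UMIs were summed per sample and cell group and fitted with edgeR 4.0.16 in R 4.3.3 (quasi-likelihood, TMM, a minimum of 10 counts in 2 or more profiles, Benjamini-Hochberg adjustment in each contrast, threshold 0.05). Mitochondrial genes, genes of the gates and, between subsets, the anchors were left out. The filter can be met by the 2 profiles of a single group. A gene near 0 in the other group then enters through the side where it is high. A standard error is the log2 fold change divided by the root of F. DESeq2 1.42.0, a replicate block, no TMM, no filter, other anchors and gates, leaving out cells of very high UMIs, subtraction of empty-droplet RNA, thinned subsets and leaving out each profile were alternatives. Leaving out the cell rich in haemoglobin, and the upper limit on UMIs for the number of cells in the gate, were added after seeing the data. In a fit without 1 profile, the spread comes from the groups that keep 2 samples. Doublets were not called.

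The members and lists were chosen with earlier results of these data known. Genes were named from these lists by role, and by rank: the 10 with the largest smallest fold change among those higher than all 3 groups with at least 50 UMIs in each sample, and the 10 with the largest fold change in each direction between arterial- and venous-anchored cells, with at least 20 UMIs in each higher profile. A gene that this rule names is not reported here. Profiles of 1 replicate share a dissociation. Their deviations correlated by 0.03 to 0.17 between cell groups (1 of 6 pairs over 0.1) and by -0.12 to 0.08 between subsets (0 of 6). On simulated counts for endothelial against mural cells (16884 genes), 46.5% of 2-fold and 75.5% of 4-fold changes were recovered, with 0.826% of calls on unchanged genes, and for arterial- against venous-anchored cells (9972 genes) 51.6% and 96.7%, with 2.86%. The simulation used 1 pooled mean per gene for all profiles and 1 common dispersion. It left out the choice of cells, gene-wise spread and shared dissociations. These shares thus do not measure recovery or false calls in the real contrasts. Intervals are exact binomial (Clopper-Pearson) and, like the limits for 0 counts, cover counting error only.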

Additional observations from a re-analysis of the deposited data

How the results depend on the processing

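Counts of genes that set endothelial cells apart from the other 3 groups stayed within 1.5 times under the alternatives run. The median of all genes against satellite glia moved by 0.18 on the log2 scale without TMM. Between arterial- and venous-anchored cells, DESeq2 called 159 genes higher and 227 lower, and 662 were lower without a filter on low counts. Leaving out 1 profile gave 126 to 151 higher and 183 to 209 lower.

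Contrasts with low-anchor cells moved most. Genes higher in arterial-anchored cells numbered 11 with DESeq2, 15 with at least 3 anchor UMIs, 9 with a replicate block, 9 without Hey1 and 41 without Nr2f2 as anchor, 8 without TMM, 141 without a filter, 2 with 0 UMIs of each exclusion gene, 58 with thinned subsets and 8 with Flt1 and Pecam1 at 20 per 10000. Genes lower there numbered 54 without Nr2f2, 73 without a filter, 3 with 0 exclusion UMIs and 61 with thinned subsets. Leaving out 1 profile gave 0 to 30 and 2 to 12. Genes higher in venous-anchored than in low-anchor cells numbered 82 with DESeq2, 232 with 3 anchor UMIs, 313 without Nr2f2, 401 without a filter and 339 with thinned subsets, and those lower 156, 255, 185 and 261 under the last 4 of these. Leaving out 1 profile gave 29 to 99 and 22 to 73. The causes were not tested. Without Nr2f2 and with thinned subsets, the both-anchor group had under 10 cells in a sample and was dropped from the fit.

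With 0 UMIs of each exclusion gene replicate 2 had 146 cells. The share of endothelial cells with a UMI followed depth: at 2000 UMIs, at 1000 UMIs and unthinned it was 16.4%, 10.2% and 35.9% for Edn1 and 33.9%, 23.95% and 59.9% for Plvap in replicate 1, and 16.85%, 9.44% and 43.9% for Edn1 and 29.2%, 19.4% and 56.7% for Plvap in replicate 2.

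Without Nr2f2 as an anchor, the arterial- against venous-anchored fold changes of Edn1 (-0.13, adjusted p = 0.882 by edgeR) and Gpihbp1 (1.26, adjusted p = 0.0136 by edgeR) reversed. In comparisons of a named gene under an alternative, 307 lost the call and 5835 kept direction and call. The replicate block cost 7 named calls, in Ednrb, Lrp8, Tfrc, Eln, Csf1 and Gimap8 between arterial- and venous-anchored and Meox1 between venous- and low-anchor cells, with adjusted p by edgeR of 0.0532 to 0.0699. It changed no other call of a named gene. DESeq2 cost 40.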

Other observations

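Cd36, a fatty acid carrier, had 1 UMI in the endothelial cells of replicate 1 and 40 in those of replicate 2, of which 38 lay in arterial-anchored cells. Both samples had similar counts in mural cells, 143 and 132. With 1 group of 2 samples this difference was not tested.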
